A study of Homo sapiens with 12 samples.

Results

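Cytoplasmic mRNA expression of interferon-stimulated and antigen presentation genes was examined in U2OS cells, a human osteosarcoma cell line, after siRNA knock-down of IPPK, GLE1 or DBP5. The set was a list of 52 named genes, and a gene was measured where the accession of at least 1 array probe mapped to it in RefSeq. In all, 51 genes had a probe, among 27522 gene names on the array, and IFI27 matched none. DBP5 is an RNA helicase at the nuclear pore that releases exported mRNA into the cytoplasm, GLE1 is the protein that stimulates it, and IPPK is the kinase that makes inositol hexakisphosphate, the cofactor of this stimulation. U2OS cells received 20 nM of control siRNA or of siRNA against DBP5, GLE1 or IPPK by lipofection, and only the target of the siRNA differed between the 4 groups. The RNA came from the cytoplasm, and 12 one-colour arrays were used in all, 3 per siRNA. The methods describe 3 independent array experiments. The labels do not name the siRNA molecule used on each array, so an effect of the target and an effect of the siRNA itself cannot be told apart. The labels name no treatment with interferon.

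Type I interferons bind a receptor made of IFNAR1 and IFNAR2, and the signal passes through JAK kinases to transcription factors that include STAT2 and IRF9, which bind the interferon-stimulated response element (ISRE) of target genes. The targets include antiviral effectors that bind, cut or trap viral RNA and proteins, and feedback inhibitors such as USP18 and SOCS1. Type II interferon acts through the gamma-activated site (GAS), and together with IRF1 it induces guanylate-binding proteins and the class I antigen presentation genes. In that pathway the immunoproteasome cuts proteins, the TAP transporter carries the peptides into the endoplasmic reticulum, and HLA class I molecules with B2M show them at the cell surface.

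Values are normalized intensities, the brightness of a probe after subtraction of the local background and normalization between arrays. They are relative to the other probes of an array, so a change shared by all mRNAs would not appear in them. A gene was represented by its brightest probe. It was tested where some siRNA had this probe well above background on each of its 3 arrays, which held for 48 of the 51 genes and for 20821 genes in all. The brightest probe of 42 of the 48 was well above background on all 12 arrays. IFITM1, OAS1, IRF7, BST2, GBP1 and GBP2 were tested but reached this mark on 9, 8, 7, 7, 7 and 11 arrays. HERC5, the main ligase of ISG15, was not well above background on any array. RSAD2, the antiviral enzyme viperin, reached it on 1 array, an array of IPPK siRNA, and XAF1 on 2, so neither was tested. Testing used limma over all 12 arrays, with Benjamini-Hochberg adjustment over all genes at 0.05. A passed filter can rest on the group in which a gene is bright, so the counts over the 48 genes are descriptions of the tested genes.

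Between 70.9% and 77.7% of all probes were well above background on an array, with the 3 IPPK siRNA arrays between 70.9% and 73.8%. Each siRNA lowered its target: the intensity of DDX19B, the gene of DBP5, was 0.0643 ± 0.00169 of the control level in DBP5 knocked-down cells (SD, n = 3 arrays), that of GLE1 was 0.102 ± 0.0283 after GLE1 knock-down and that of IPPK was 0.186 ± 0.00761 after IPPK knock-down. A second IPPK probe gave 0.495 ± 0.0408. The other genes of the trio also differed from control: DDX19B was at 0.498 after GLE1 and 0.872 after IPPK knock-down, GLE1 at 0.713 after IPPK knock-down and IPPK at 0.419 with DBP5 siRNA (limma adjusted p = 9e-08, 0.0124, 0.0187 and 8.3e-08). After GLE1 knock-down the IPPK probes disagreed, at 0.834 for the brightest and 2.11 for the second (adjusted p = 0.00383 and 3.1e-06). Among markers of the osteoblast and mesenchymal lineage, 5 of 6 were well above background on all 12 arrays (RUNX2, COL1A1, SPARC, ALPL and VIM). COL1A1 was at 0.779 of control with DBP5 siRNA, 1.05 with GLE1 siRNA and 0.253 with IPPK siRNA (limma adjusted p = 0.00369, 0.527 and 2e-08), and RUNX2 at 1.02, 1.07 and 0.612 (adjusted p = 0.847, 0.52 and 0.000397). SPARC was called lower with GLE1 siRNA (0.777, adjusted p = 0.00761) and VIM higher with DBP5 siRNA (1.25, adjusted p = 0.0362), while ALPL was not called. COL1A2 was called lower with DBP5 and IPPK siRNA, where no array was well above background (adjusted p = 0.000786 and 0.00062). Of 6 leukocyte markers 4 were well above background on all arrays, with a summed intensity of 1160 to 1230 on control arrays, 1310 to 1370 after DBP5, 1300 to 1370 after GLE1 and 1010 to 1120 after IPPK knock-down. CD68, at ratios of 1.19, 1.18 and 0.838 to control with DBP5, GLE1 and IPPK siRNA, made up most of this sum. With IPPK siRNA ITGAM was called higher (1.38, limma adjusted p = 0.000605), as was a dimmer PTPRC probe (1.56, adjusted p = 0.00103). The brightest probes of PTPRC and CD14 were not called for any siRNA. Of 4 epithelial markers 2 were well above background on all arrays and KRT5 on none, and their sum was 2910 to 3010, 2760 to 3400, 4280 to 4860 and 1580 to 2320 in the order control, DBP5, GLE1 and IPPK siRNA. KRT14, at ratios of 1.16, 1.73 and 0.71 to control, made up most of this sum. EPCAM was at 0.657, 0.747 and 0.527 (limma adjusted p = 0.0398, 0.128 and 0.0047), and CDH1, not well above background on any control array, was so on 3 DBP5, 3 GLE1 and 2 IPPK siRNA arrays. The summed intensity of 3 plasmacytoid dendritic cell markers was 111 to 128 on control arrays, 69.1 to 81.6 after DBP5, 85 to 94.6 after GLE1 and 49.1 to 59 after IPPK knock-down, and CLEC4C, which defines this cell type, was not well above background on any array. This sum followed IL3RA, at ratios of 0.467, 0.642 and 0.246, while LILRA4 was at 1.19, 1.1 and 1.01 without a call. The part of these differences in the results was not tested.

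The promoter sequences are shown first, because pairs of neighbouring genes that share a promoter region are compared in the results. The 300-base window from 250 bases before to 50 after the annotated start was searched in RefSeq (GRCh38.p14) for the ISRE core (GAAA, any 2 bases, GAAA) and for the GAS letters (TTC, any 3 bases, GAA), on both strands. A window was given for 40 of the 52 genes. The ISRE core was present for 28 of the 40 (70%) against 4.38% of 27305 genes, and the GAS letters for 12 (30%) against 9.38%. In 5 of the 52 windows of these genes, an ISRE core and a GAS overlapped. A match of letters is a description and shows no binding. TAP1 and PSMB9 lie head to head on chromosome 6, with 488 bases between a start of TAP1 on the minus strand and the start of PSMB9 on the plus strand. The 250 bases before each of these starts are given 5′ to 3′ on the strand of the gene, at chr6:32853705-32853954 (minus) for TAP1 and chr6:32853942-32854191 (plus) for PSMB9, with ISRE cores in capitals. 
TAP1: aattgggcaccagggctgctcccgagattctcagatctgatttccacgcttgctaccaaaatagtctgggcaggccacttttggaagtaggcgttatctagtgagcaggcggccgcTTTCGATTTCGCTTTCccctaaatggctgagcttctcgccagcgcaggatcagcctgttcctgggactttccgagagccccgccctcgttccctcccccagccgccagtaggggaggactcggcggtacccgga
PSMB9: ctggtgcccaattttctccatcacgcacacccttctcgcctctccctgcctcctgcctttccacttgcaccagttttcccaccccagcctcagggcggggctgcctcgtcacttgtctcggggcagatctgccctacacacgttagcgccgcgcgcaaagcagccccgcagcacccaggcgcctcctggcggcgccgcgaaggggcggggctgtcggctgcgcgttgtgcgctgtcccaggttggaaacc
In TAP1, 2 ISRE cores overlap on the opposite strand, and the PSMB9 window holds none. The cores of TAP1 lie between the starts of both genes, but further from the PSMB9 start than its window reaches. PSMB9 is therefore counted below as a window without a core, which depends on the window length. PARP9 and DTX3L form another head-to-head pair, on chromosome 3, with a pair of annotated starts 38 bases apart. The stretch between them is given on the strand of DTX3L at chr3:122564301-122564341 (plus) and runs 4 bases past the start of DTX3L, so that the ISRE core in capitals is complete.
DTX3L and PARP9: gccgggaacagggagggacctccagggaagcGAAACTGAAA
IFI44L and ISG15 are given as members with separate promoters, at chr1:78620198-78620447 (plus) and chr1:1013247-1013496 (plus).
IFI44L: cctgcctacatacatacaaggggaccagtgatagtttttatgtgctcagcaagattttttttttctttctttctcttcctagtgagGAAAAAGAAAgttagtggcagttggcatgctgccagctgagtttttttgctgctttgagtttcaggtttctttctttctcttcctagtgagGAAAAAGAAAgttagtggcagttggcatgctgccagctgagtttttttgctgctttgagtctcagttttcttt
ISG15: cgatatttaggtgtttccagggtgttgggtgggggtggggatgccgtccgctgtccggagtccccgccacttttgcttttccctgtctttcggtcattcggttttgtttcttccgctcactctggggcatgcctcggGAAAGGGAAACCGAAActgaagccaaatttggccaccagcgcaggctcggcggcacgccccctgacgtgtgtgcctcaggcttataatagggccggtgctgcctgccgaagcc
Each of the latter windows holds 2 ISRE cores, which overlap in ISG15 and stand apart in IFI44L.

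Effectors that bind or degrade RNA were mostly lower in knocked-down cells, and antigen presentation genes were divided. Among the 48 tested genes, 26 were lower and 7 higher after DBP5 knock-down. Over all 20821 genes the shares called were 27.1% lower and 27.3% higher. GLE1 knock-down lowered 22 and raised 14, against 30.4% lower and 32% higher over all genes. IPPK knock-down lowered 26 and raised 8, against 28.2% and 27.3%. Calls in either direction covered 54.4%, 62.4% and 55.6% of all genes in the same order, and 33, 36 and 34 of the 48. The lower share of the 48 was therefore 54.2%, 45.8% and 54.2% in this order, and the higher share 14.6%, 29.2% and 16.7%. The median log2 fold change of the 48 genes was -0.36, -0.12 and -0.26, with medians of -0.02, 0.03 and -0.03 over all genes. Called changes of at least 2-fold numbered 11 lower and 1 higher after DBP5, 11 lower and 6 higher after GLE1 and 5 lower and 1 higher after IPPK knock-down. Over all genes such changes made up 4.52% and 5.37%, 8.19% and 8.09%, and 5.38% and 5.79%. The 3 comparisons share the control arrays and are not independent of each other. In bulk RNA, fewer cells carrying an mRNA and less of it in each cell cannot be told apart. With the methods' t-test on pairs of the same replicate number, 25 genes were lower after DBP5 and 21 after IPPK knock-down at its unadjusted threshold, and 14 and 15 after Benjamini-Hochberg adjustment.

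**Figure D1:**
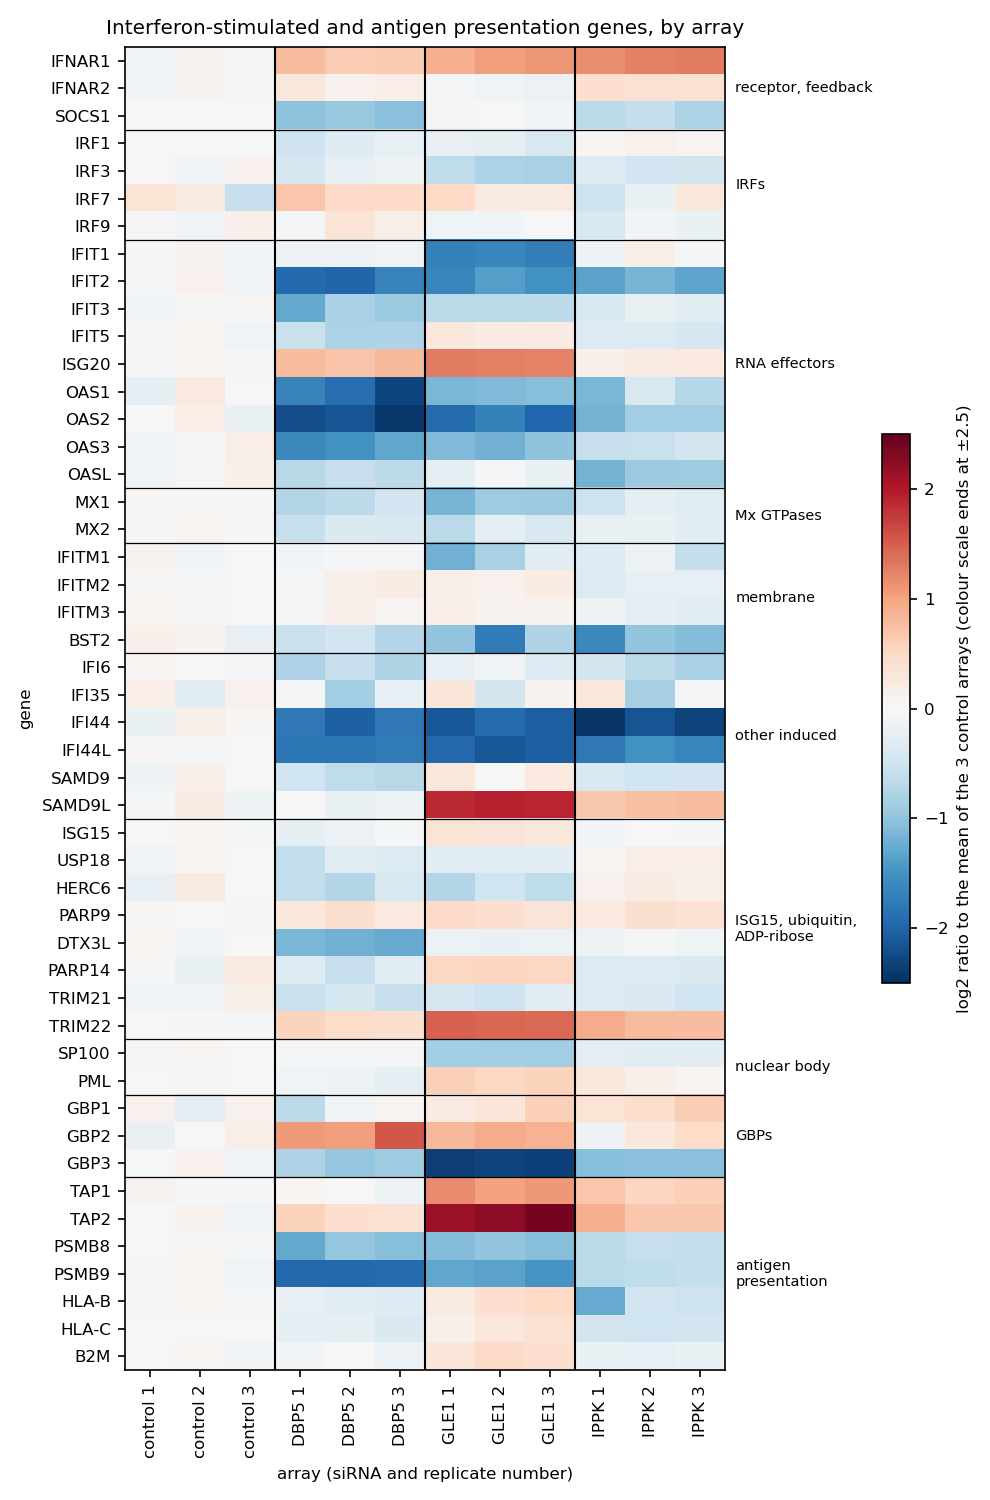
Log2 ratio of the 48 tested genes to the mean of the 3 control arrays, with 1 row per gene, ordered by role, and 1 column per array. Blue is lower and red is higher than control; OAS2, IFI44 and IFI44L are blue on all 9 knock-down arrays, and TAP2 and TRIM22 are red on all 9.

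Of the 25 tested genes with an ISRE core in their window, 15 were lower and 3 higher after DBP5, 12 lower and 8 higher after GLE1, and 16 lower and 4 higher after IPPK knock-down. Of the 11 with a window but no core, 5 were lower and 1 higher, 5 lower and 3 higher, and 5 lower and 2 higher. Of the 12 tested genes without a window, 6 were lower and 3 higher, 5 lower and 3 higher, and 5 lower and 2 higher. Over all genes the shares were 27.1% lower and 27.3% higher, 30.4% and 32%, and 28.2% and 27.3%. The median log2 fold change was -0.59, -0.15 and -0.35 with a core and -0.29, -0.06 and -0.21 without. Genes that were lower and genes that were higher thus both carried the core.

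Among the effectors that bind or degrade RNA, DBP5 knock-down lowered 7 of 9, GLE1 knock-down 6 and IPPK knock-down 7 (77.8%, 66.7% and 77.8%), against 27.1%, 30.4% and 28.2% of all genes. ISG20 was the gene that rose in each comparison. The IFIT proteins bind viral RNA ends and block its translation. IFIT2 read 263, 290 and 255 on the control arrays, 70.2, 66.8 and 84.8 after DBP5, 87.4, 104 and 94.1 after GLE1 and 106, 120 and 108 after IPPK knock-down. Every knock-down array lay below every control array, and the log2 fold changes were -1.87 ± 0.1, -1.5 ± 0.1 and -1.28 ± 0.1 (SE; limma adjusted p = 1.4e-07, 3.3e-07 and 1.8e-06). IFIT1, its neighbour, showed another pattern. It read 469, 510 and 459 on the control arrays, 431, 432 and 453 after DBP5, 149, 155 and 145 after GLE1 and 439, 528 and 470 after IPPK knock-down. IFIT1 was thus lower after GLE1 knock-down alone (log2 fold change -1.68, limma adjusted p = 1.3e-08; -0.13 with adjusted p = 0.163 after DBP5 and 0 with adjusted p = 0.964 after IPPK), and the GLE1 knock-down differed from both others by 1.55 and -1.67 on the log2 scale (DBP5 minus GLE1 and GLE1 minus IPPK, adjusted p = 4.3e-08 and 1.8e-08). IFIT3 fell by 1, 0.67 and 0.29 on the log2 scale in the DBP5, GLE1 and IPPK siRNA groups, and the last call was lost when any of 8 single arrays was left out (adjusted p up to 0.119). With normexp correction or the processed values of the authors, which keep the background in, the fall of IFIT2 after DBP5 knock-down was 1.25 or 1.24 on the log2 scale.

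The OAS enzymes sense double-stranded RNA and activate the latent ribonuclease RNase L. OAS2 read 202, 229 and 182 on the control arrays, 43.9, 45.6 and 38.2 after DBP5, 53.5, 63.2 and 51.6 after GLE1 and 89.5, 112 and 112 after IPPK knock-down. All groups were below control, and DBP5 and IPPK knock-down differed by -1.29 on the log2 scale (limma adjusted p = 1.1e-05). The log2 fold changes were -2.26 ± 0.123, -1.86 ± 0.123 and -0.97 ± 0.123 (SE; adjusted p = 1.5e-07, 3e-07 and 6.2e-05). The probes of OAS2 disagreed: a dimmer one, well above background on all 12 arrays with intensities of 20.5 to 47.2, had log2 fold changes of 0.09, 0.14 and 0.23 (adjusted p = 0.851, 0.758 and 0.595). With normexp the brightest probe gave -1.38 after DBP5 and -1.17 after GLE1 knock-down. OAS3, the largest enzyme of the family, read 289, 303 and 351 on the control arrays, 102, 110 and 128 after DBP5, 145, 137 and 156 after GLE1 and 211, 214 and 227 after IPPK knock-down. Its groups did not overlap with control, and it fell by 1.47, 1.1 and 0.53 on the log2 scale (adjusted p = 5.1e-07, 2.7e-06 and 0.000838). A dimmer OAS3 probe gave -0.73, -0.68 and -0.47, the last without a call (adjusted p = 0.0347, 0.0399 and 0.152). OAS1 read 40.7, 57.7 and 48.5 in control and 15.2, 12.9 and 9.88 after DBP5 knock-down, where it was not well above background on any array. It was at least 3.48-fold lower there, taking the lowest intensity well above background of each array as the level where that was higher (limma adjusted p = 1.5e-05). After GLE1 knock-down OAS1 read 22.1, 22.7 and 23.2, and after IPPK knock-down 22, 36.9 and 29.4 with 2 arrays well above background, which also lay below control (log2 fold changes of -1.1 and -0.75, adjusted p = 0.00077 and 0.00939). With normexp, its log2 fold changes were -0.59 after DBP5 and -0.39 after GLE1 knock-down.

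OASL, a relative of the OAS enzymes without their catalytic activity, read 167, 173 and 193 on the control arrays, 109, 119 and 113 after DBP5, 152, 174 and 159 after GLE1 and 78.1, 94.5 and 95.6 after IPPK knock-down. It was lower with DBP5 and IPPK siRNA (log2 fold change -0.64 and -0.99, limma adjusted p = 0.000145 and 5.5e-06) and overlapped with control after GLE1 knock-down (-0.13, adjusted p = 0.231). GLE1 and IPPK knock-down differed by 0.86 on the log2 scale (adjusted p = 1.4e-05). ISG20, an exonuclease that degrades single-stranded RNA, rose instead. It read 3710, 3950 and 3700 in control, 6580, 6200 and 6600 after DBP5, 9300, 9010 and 8910 after GLE1 and 4110, 4430 and 4510 after IPPK knock-down. The ratios to control were 1.71, 2.4 and 1.15 (adjusted p = 7.5e-07, 1.2e-08 and 0.00857), and the order GLE1 over DBP5 over IPPK held in the direct comparisons (differences of 0.49 and 0.57 on the log2 scale, adjusted p = 2e-05 and 9.8e-06).

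**Figure D2:**
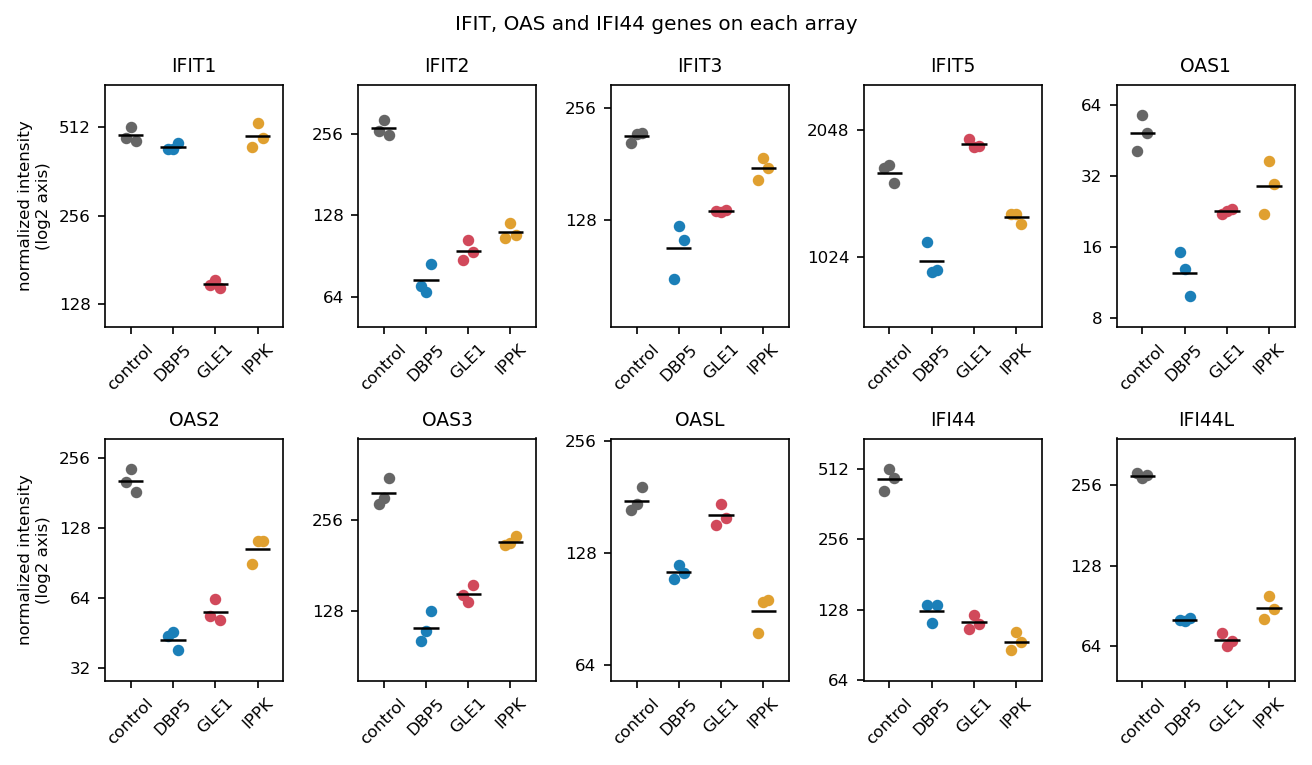
Normalized intensity of the IFIT, OAS and IFI44 genes on each array (log2 axis, with its own range for each gene), with 1 point per array and a line at the geometric mean of the 3 arrays of each siRNA. IFIT1 is low in the GLE1 siRNA group alone, with 145 to 155 against 459 to 510 in control, whereas IFI44L is low in all knock-down groups, at 63.9 to 98.1 against 272 to 284.

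IFI44 and IFI44L are neighbouring genes, strongly induced by interferon, whose proteins remain poorly understood. IFI44 read 412, 510 and 468 on the control arrays, 134, 112 and 134 after DBP5, 106, 122 and 111 after GLE1 and 85.8, 103 and 92.8 after IPPK knock-down. IFI44L read 284, 272 and 279 in control, 79.7, 79.2 and 81.6 after DBP5, 71.4, 63.9 and 67 after GLE1 and 80.6, 98.1 and 88.3 after IPPK knock-down. Every knock-down array of both genes lay far below the control range. IFI44 fell by 1.87, 2.03 and 2.3 on the log2 scale and IFI44L by 1.8, 2.05 and 1.65 (SE 0.106 and 0.071; limma adjusted p between 3.2e-09 and 1.9e-07). With the processed values of the authors these falls were smaller, 1.67 for IFI44 after IPPK and 1.15 and 1.31 for IFI44L after DBP5 and GLE1 knock-down, each still past the threshold. IFI6, a mitochondrial protein that delays cell death, read 778, 739 and 731 in control, 440, 500 and 445 after DBP5, 654, 705 and 603 after GLE1 and 542, 473 and 427 after IPPK knock-down. It fell by 0.7 and 0.65 on the log2 scale after DBP5 and IPPK knock-down (adjusted p = 9e-05 and 0.000156), with -0.2 after GLE1 knock-down (adjusted p = 0.0874), which passed with normexp (-0.19, adjusted p = 0.0163). IFI35 passed in no comparison, and its replicate 2 was lowest within each siRNA (109 to 164, against 171 to 245 on the other arrays). With the replicate number as a block, IFI35 passed after DBP5 knock-down (log2 fold change -0.37, adjusted p = 0.0132).

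SAMD9 and SAMD9L are adjacent paralogs that block the translation of viral and cellular mRNA. SAMD9L read 343, 405 and 324 on the control arrays, 354, 313 and 326 after DBP5, 1290, 1350 and 1340 after GLE1 and 564, 602 and 605 after IPPK knock-down. The DBP5 group overlapped with control, and the others lay above it: the ratios were 3.72 and 1.66 with GLE1 and IPPK siRNA (limma adjusted p = 1.3e-08 and 2.4e-05), and its dimmer probe gave 3.47 and 1.38. SAMD9 read between 62.5 and 71.4 after DBP5 and between 71.5 and 76.8 after IPPK knock-down, against 92.6 to 110 in control, and so fell in both (adjusted p = 0.000221 and 0.00156). The neighbours thus moved in opposite directions after IPPK knock-down. With the methods' t-test the SAMD9 calls after DBP5 and IPPK knock-down were lost (adjusted p = 0.0885 and 0.0926).

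MX1 and MX2 are dynamin-like GTPases that trap viral nucleocapsids. MX1 read 139, 133 and 139 on the control arrays, 82.7, 86.9 and 98.7 after DBP5, 60.8, 73.9 and 73.1 after GLE1 and 95.8, 115 and 111 after IPPK knock-down. It fell by 0.62, 0.99 and 0.35 on the log2 scale (limma adjusted p = 0.000348, 7.7e-06 and 0.0111), with no array of a knock-down inside the control range. MX2 fell by 0.43 after both DBP5 and GLE1 knock-down (adjusted p = 0.00471 and 0.00379). After IPPK knock-down its log2 fold change was -0.22 (adjusted p = 0.0973), which passed with the replicate number as a block (adjusted p = 0.0433) and with each other scaling (-0.36 at the 75th percentile and -0.28 with quantile normalization, adjusted p = 0.00466 and 0.0414).

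Of 4 tested membrane proteins, limma called 0 after DBP5 knock-down, 2 lower after GLE1 and 3 lower after IPPK knock-down, with 27.1%, 30.4% and 28.2% of all genes lower. After DBP5 knock-down 1 of the 4, BST2, had an unadjusted p under 0.05 in limma. The methods' t-test with adjustment called 1 of the 4 for each siRNA. These were BST2 with DBP5 siRNA (adjusted p = 0.0404), IFITM3 as higher with GLE1 siRNA (adjusted p = 0.0162) and IFITM3 as lower with IPPK siRNA. It did not call BST2 with GLE1 or IPPK siRNA (adjusted p = 0.135 and 0.0862), IFITM1 with GLE1 siRNA (adjusted p = 0.173) or IFITM2 with IPPK siRNA (adjusted p = 0.128). IFITM3, which stops viruses in the endosome, read 24100, 22500 and 22900 on the control arrays, 23500, 25400 and 24400 after DBP5, 26000, 24500 and 24600 after GLE1 and 21100, 19800 and 19400 after IPPK knock-down. It was lower after IPPK knock-down, at a ratio of 0.867 (limma adjusted p = 0.00756), and did not pass elsewhere, with ratios of 1.05 and 1.08. IFITM2 behaved alike, at 0.84 after IPPK knock-down (adjusted p = 0.00774), but the probes of these near-identical paralogs may share signal. BST2 (tetherin), which holds budding virions at the cell surface, was dim. It read 31.1, 30.3 and 24.8 in control, 19.4, 20.6 and 17.3 after DBP5, 14.5, 8.46 and 17 after GLE1 and 9.32, 14.5 and 13.5 after IPPK knock-down, where no array was well above background. BST2 was at least 1.78-fold lower after IPPK knock-down (adjusted p = 0.00155) and fell by 1.16 on the log2 scale after GLE1 knock-down (adjusted p = 0.00178), where 1 of 3 arrays was well above background, with -0.59 after DBP5 knock-down (adjusted p = 0.0675). The fall after GLE1 knock-down was 0.52 by its dimmer probe (adjusted p = 0.0874), and normexp reduced it to 0.22 (adjusted p = 0.00279) and the fall after IPPK knock-down to 0.29 (adjusted p = 0.000483). After DBP5 knock-down BST2 passed with normexp (-0.2, adjusted p = 0.00665), the processed values of the authors (-0.18, adjusted p = 0.013), the mean of its probes (-0.58, adjusted p = 0.00791) and the 6 arrays fitted alone (adjusted p = 0.00543). IFITM1, also dim, fell by 0.77 after GLE1 knock-down (adjusted p = 0.00571), with 1 of 3 arrays well above background, but its value was -0.11 with the processed values of the authors (adjusted p = 0.0841).

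Within the ISG15 system and the ubiquitin and ADP-ribose enzymes, 6 of 8 tested genes were lower and 2 higher after DBP5, 4 and 4 after GLE1, and 2 and 2 after IPPK knock-down. The shares over all genes were 27.1% and 27.3%, 30.4% and 32%, and 28.2% and 27.3%, and the IPPK shares of 25% and 25% were near them. ISG15, a ubiquitin-like protein that is attached to other proteins, read 7650, 7840 and 7380 on the control arrays, 6440, 6840 and 7350 after DBP5, 9670, 9500 and 9130 after GLE1 and 7280, 7650 and 7400 after IPPK knock-down. It rose after GLE1 knock-down at a ratio of 1.24 (limma adjusted p = 0.000691). The ratio of 0.901 after DBP5 knock-down passed narrowly (adjusted p = 0.0437) and no longer did so when any of 10 single arrays was left out (adjusted p up to 0.135) or with the replicate number as a block (adjusted p = 0.0549). USP18, which removes ISG15 and shuts off the receptor, fell by 0.41 and 0.28 on the log2 scale after DBP5 and GLE1 knock-down (adjusted p = 0.00178 and 0.0137), with 0.13 after IPPK knock-down (adjusted p = 0.229). HERC6, a relative of HERC5, fell by 0.58 and 0.62 (adjusted p = 0.0011 and 0.000585), with 0.16 after IPPK knock-down (adjusted p = 0.267). Its second probe gave -0.43 without a call after DBP5 knock-down (adjusted p = 0.179) and was not well above background on any GLE1 siRNA array.

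TRIM22, a ubiquitin ligase with antiviral activity, read 260, 268 and 258 on the control arrays, 384, 360 and 345 after DBP5, 729, 713 and 701 after GLE1 and 495, 456 and 447 after IPPK knock-down. The 4 groups did not overlap with each other, and the ratios to control were 1.38, 2.72 and 1.78 (limma adjusted p = 4.2e-05, 6.7e-09 and 5.6e-07). TRIM21, the cytosolic antibody receptor, went the other way and fell by 0.52, 0.4 and 0.4 on the log2 scale (adjusted p = 0.000369, 0.0018 and 0.00214).

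DTX3L and PARP9 act as a complex that joins ubiquitin ligase and ADP-ribosyltransferase activity, and they share the short promoter stretch printed above. DTX3L read 872, 804 and 844 on the control arrays, 378, 365 and 349 after DBP5, 759, 748 and 762 after GLE1 and 769, 824 and 775 after IPPK knock-down. DBP5 knock-down left it at 0.433 of control (limma adjusted p = 2.9e-08) and lower than after GLE1 or IPPK knock-down by 1.06 or 1.12 on the log2 scale (adjusted p = 6e-08 and 8e-08). PARP9 read 288, 282 and 278 in control, 339, 373 and 337 after DBP5, 392, 377 and 351 after GLE1 and 336, 373 and 363 after IPPK knock-down. It was higher than control on all 9 knock-down arrays, with ratios of 1.24, 1.32 and 1.26 (limma adjusted p = 0.00181, 0.000234 and 0.000963), so the partners moved in opposite directions after DBP5 knock-down. With the methods' t-test the PARP9 calls after DBP5 and IPPK knock-down were lost (adjusted p = 0.0715 and 0.0649). DTX3L also passed after GLE1 knock-down at a ratio of 0.901 (adjusted p = 0.0255), a call that was lost without any of 5 single arrays. PARP14, another ADP-ribosyltransferase, was lower after DBP5 and IPPK knock-down (ratios 0.757 and 0.788, adjusted p = 0.00523 and 0.0121) and higher after GLE1 knock-down (1.44, adjusted p = 0.000818).

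PML and SP100 are scaffold proteins of the nuclear bodies that restrict DNA viruses. SP100 read 61100, 65100 and 62800 on the control arrays, 61900, 60900 and 61300 after DBP5, 35100, 34700 and 34400 after GLE1 and 53800, 51600 and 51900 after IPPK knock-down. By this probe it fell by 0.86 and 0.27 on the log2 scale with GLE1 and IPPK siRNA (limma adjusted p = 3.3e-08 and 0.0003). The probes disagreed: one dimmer probe gave -0.54, -0.18 and -0.54 in the DBP5, GLE1 and IPPK siRNA groups (adjusted p = 4.7e-05, 0.0351 and 4.3e-05), and another gave 0.21, -0.08 and -0.16 without a call. PML rose after GLE1 knock-down by each of its 3 probes (ratios 1.47, 1.69 and 1.74). After DBP5 knock-down its brightest probe gave a ratio of 0.898 (adjusted p = 0.0551), whereas the dimmer probes gave 1.82 and 1.89 (adjusted p = 0.00126 and 8.3e-06). With the replicate number as a block, the brightest probe of PML was called lower after DBP5 knock-down (adjusted p = 0.0337) and higher after IPPK knock-down (log2 fold change 0.15, adjusted p = 0.0345), a call not made without the block (adjusted p = 0.0566). With IPPK siRNA the dimmer probes of PML disagreed with each other, at 1.25 without a call (adjusted p = 0.13) and at 0.852, called lower (adjusted p = 0.0459).

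The receptor genes were not lowered by their brightest probes. IFNAR1 read 636, 716 and 659 on the control arrays, 1150, 1040 and 1050 after DBP5, 1250, 1380 and 1440 after GLE1 and 1500, 1600 and 1640 after IPPK knock-down. It rose at ratios of 1.61, 2.02 and 2.36 (limma adjusted p = 1.6e-05, 5.4e-07 and 2e-07), and each knock-down differed from the other two (adjusted p of 0.00288, 0.000112 and 0.0211). IFNAR2 read 1780, 1970 and 1830 in control, 2260, 1990 and 2080 after DBP5, 1810, 1720 and 1670 after GLE1 and 2480, 2420 and 2430 after IPPK knock-down. The ratio after IPPK knock-down was 1.31 (adjusted p = 0.000257), and that after GLE1 knock-down was 0.934 (adjusted p = 0.186). After DBP5 knock-down it was 1.13 (adjusted p = 0.0269), a call lost without any of 3 single arrays, and a dimmer probe, at 57.6 to 77.9 in control and 9.85 to 29 after DBP5 knock-down with 2 of 3 arrays well above background, went the other way at -1.75 on the log2 scale (adjusted p = 0.0015). This dimmer probe was also called lower after GLE1 knock-down, at -0.88 on the log2 scale (adjusted p = 0.0483), as was the mean of the probes of IFNAR2 (-0.34, adjusted p = 0.0455). A further probe gave ratios of 1.25, 0.964 and 1.56 (adjusted p = 0.00322, 0.558 and 2.6e-05). SOCS1, which inhibits the JAK kinases, read 423, 426 and 425 in control and 210, 221 and 205 after DBP5 knock-down. It fell there by 1 on the log2 scale (adjusted p = 1.8e-07), and fell by 0.69 after IPPK knock-down (adjusted p = 2.5e-06), while its value after GLE1 knock-down was -0.01 (adjusted p = 0.94).

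Of the 4 interferon regulatory factors, 2 were called lower with DBP5 siRNA, 2 with GLE1 siRNA and 1 with IPPK siRNA, against 27.1%, 30.4% and 28.2% of all genes. IRF1, an activator of antigen presentation genes, read 270, 269 and 265 on the control arrays, 187, 214 and 233 after DBP5, 231, 228 and 204 after GLE1 and 279, 288 and 282 after IPPK knock-down. It fell by 0.35 and 0.28 on the log2 scale after DBP5 and GLE1 knock-down (limma adjusted p = 0.00326 and 0.00961), and the IPPK group gave 0.08 (adjusted p = 0.433). IRF3, the factor that RNA sensors activate to induce interferon beta, read 1910, 1760 and 2050 in control, 1420, 1650 and 1750 after DBP5, 1220, 1100 and 1090 after GLE1 and 1520, 1360 and 1380 after IPPK knock-down. It fell by 0.74 and 0.43 after GLE1 and IPPK knock-down (adjusted p = 3.6e-05 and 0.00232). The fall of 0.25 after DBP5 knock-down (adjusted p = 0.039) was lost without any of 6 single arrays. A second IRF3 probe, also above background on all arrays, gave -0.08, -0.51 and -0.25 and passed after GLE1 knock-down alone (adjusted p = 0.72, 0.0168 and 0.209). IRF9, the DNA-binding partner of STAT2, read 671, 636 and 740 in control, 656, 855 and 755 after DBP5, 631, 649 and 680 after GLE1 and 517, 651 and 608 after IPPK knock-down, and no group passed (adjusted p = 0.317, 0.68 and 0.138). With the processed values of the authors IRF9 was called lower after IPPK knock-down (-0.34 in place of -0.21, adjusted p = 0.0486). IRF7, the factor that amplifies interferon alpha, was close to background, at 18.4, 17.1 and 9.82 in control, 23.4, 20.2 and 20.4 after DBP5, 20.7, 16.9 and 17 after GLE1 and 10.2, 12.9 and 17.6 after IPPK knock-down. It was well above background on 2 control, 3 DBP5, 2 GLE1 and 0 IPPK siRNA arrays and was not called against control (adjusted p = 0.0863, 0.306 and 0.67). The value of IRF7 after DBP5 knock-down, 0.55 on the log2 scale, turned to -0.05 with normexp.

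**Figure D3:**
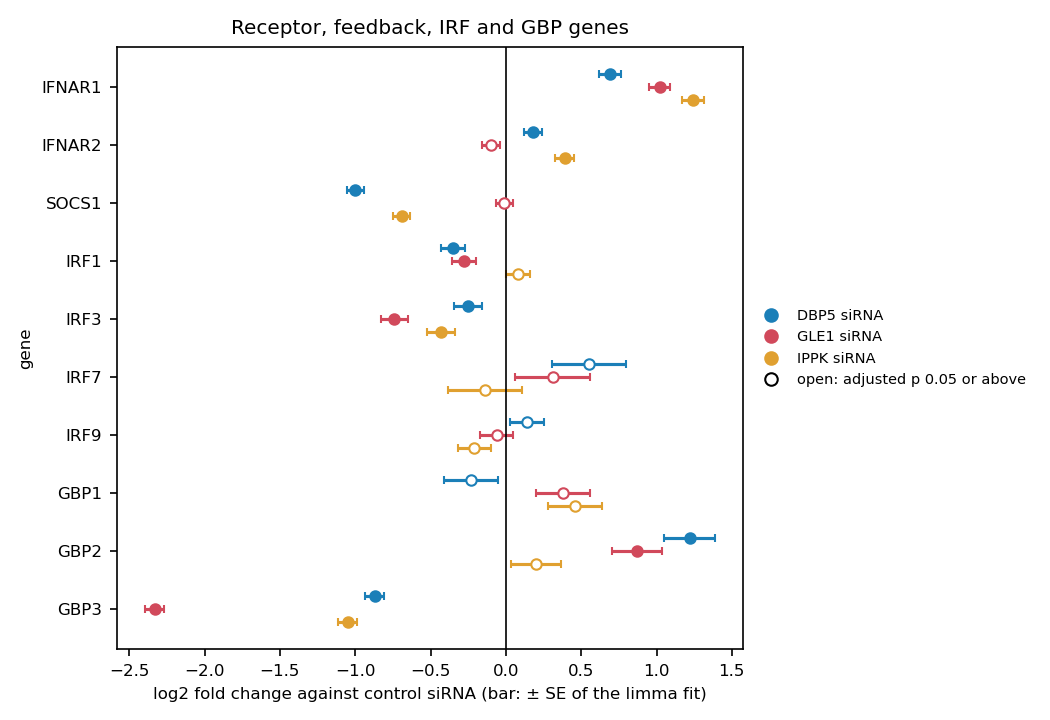
Log2 fold change against control of the receptor, feedback, IRF and GBP genes for each knock-down, with bars of ± SE from the limma fit; open circles did not pass the adjusted p of 0.05. IFNAR1 lies above 0 in all knock-downs (0.69, 1.02 and 1.24) and GBP3 below it (-0.87, -2.33 and -1.05).

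Guanylate-binding proteins are GTPases that attack the membranes of intracellular pathogens, and the 3 measured members each behaved differently. GBP3 read 777, 844 and 733 on the control arrays, 461, 401 and 422 after DBP5, 153, 157 and 156 after GLE1 and 376, 379 and 381 after IPPK knock-down. It fell in each comparison, to ratios of 0.545 ± 0.0387, 0.198 ± 0.00289 and 0.483 ± 0.00362 (SD, n = 3 arrays; limma adjusted p = 1.2e-06, 8e-10 and 2.8e-07), and the GLE1 knock-down lay below the others by 1.46 and 1.29 on the log2 scale (adjusted p = 3.2e-08 and 5.2e-08). GBP2 read 14.4, 16.5 and 18.3 in control, 34.1, 33.5 and 47.9 after DBP5, 28.5, 31 and 29.9 after GLE1 and 15, 19.5 and 22.3 after IPPK knock-down. It rose after DBP5 and GLE1 knock-down at ratios of 2.33 and 1.82 (adjusted p = 0.000117 and 0.000992), with 1.15 after IPPK knock-down (adjusted p = 0.357). These levels were near background, and normexp left a log2 fold change of 0.41 in place of 1.22 after DBP5 knock-down. GBP1 read 17.1, 13.5 and 17.1 in control, 10.1, 14.7 and 16.4 after DBP5, 18.3, 19.6 and 23.9 after GLE1 and 19.9, 21.3 and 24.2 after IPPK knock-down, and did not pass (adjusted p = 0.317, 0.0948 and 0.0513). With the replicate number as a block, GBP1 passed after GLE1 and IPPK knock-down (log2 fold changes 0.38 and 0.46, limma adjusted p = 0.0388 and 0.0187), as it did with scaling to the 75th percentile (0.53 and 0.39, adjusted p = 0.00935 and 0.0425). GBP1 was well above background on 1 control, 1 DBP5, 3 GLE1 and 2 IPPK siRNA arrays. It was thus tested only through the GLE1 siRNA group, and its changes rest on control levels near background.

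In antigen presentation, PSMB8 and PSMB9 fell in each knock-down, TAP2 rose in each, and TAP1 rose after GLE1 and IPPK knock-down. PSMB10, the other catalytic subunit of the immunoproteasome, had smaller changes, with ratios of 0.854, 1.13 and 0.942 for DBP5, GLE1 and IPPK siRNA (limma adjusted p = 0.00932, 0.0296 and 0.269). PSMB9, a catalytic subunit of the immunoproteasome, read 4130, 4240 and 3750 on the control arrays, 1030, 1040 and 1060 after DBP5, 1650, 1590 and 1460 after GLE1 and 2530, 2590 and 2670 after IPPK knock-down. The groups were in the order control, IPPK, GLE1 and DBP5 with no overlap, and the ratios to control were 0.258 ± 0.00315, 0.388 ± 0.0241 and 0.643 ± 0.0174 for DBP5, GLE1 and IPPK siRNA (SD, n = 3; limma adjusted p = 5.3e-09, 1.9e-08 and 8.5e-06). PSMB8, another catalytic subunit, read 3660, 3730 and 3530 in control, 1500, 1860 and 1750 after DBP5, 1710, 1840 and 1750 after GLE1 and 2300, 2450 and 2400 after IPPK knock-down. It fell by 1.1, 1.04 and 0.61 on the log2 scale (adjusted p = 6.2e-07, 5.2e-07 and 4.5e-05).

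TAP1 and TAP2 form the transporter that loads class I molecules with peptides. TAP1 read 7970, 7290 and 7190 on the control arrays, 7770, 7480 and 6860 after DBP5, 16900, 15000 and 15900 after GLE1 and 12100, 10800 and 11300 after IPPK knock-down. It rose at ratios of 2.13 ± 0.124 and 1.52 ± 0.0845 after GLE1 and IPPK knock-down (SD, n = 3; limma adjusted p = 2.7e-07 and 3.5e-05) and overlapped with control after DBP5 knock-down (0.985, adjusted p = 0.83). TAP2 read 710, 749 and 656 in control, 1050, 942 and 907 after DBP5, 3140, 3320 and 3700 after GLE1 and 1320, 1130 and 1130 after IPPK knock-down. The ratios of TAP2 were 1.37, 4.8 and 1.69 (limma adjusted p = 0.00159, 8.7e-09 and 4.2e-05), and that after GLE1 knock-down was the highest of the 48 tested members. TAP1 and PSMB9, which start 488 bases apart, thus moved in opposite directions after GLE1 and IPPK knock-down. After DBP5 knock-down PSMB9 was at 0.258 of control, and TAP1 stayed within the control range on 2 of 3 arrays.

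**Figure D4:**
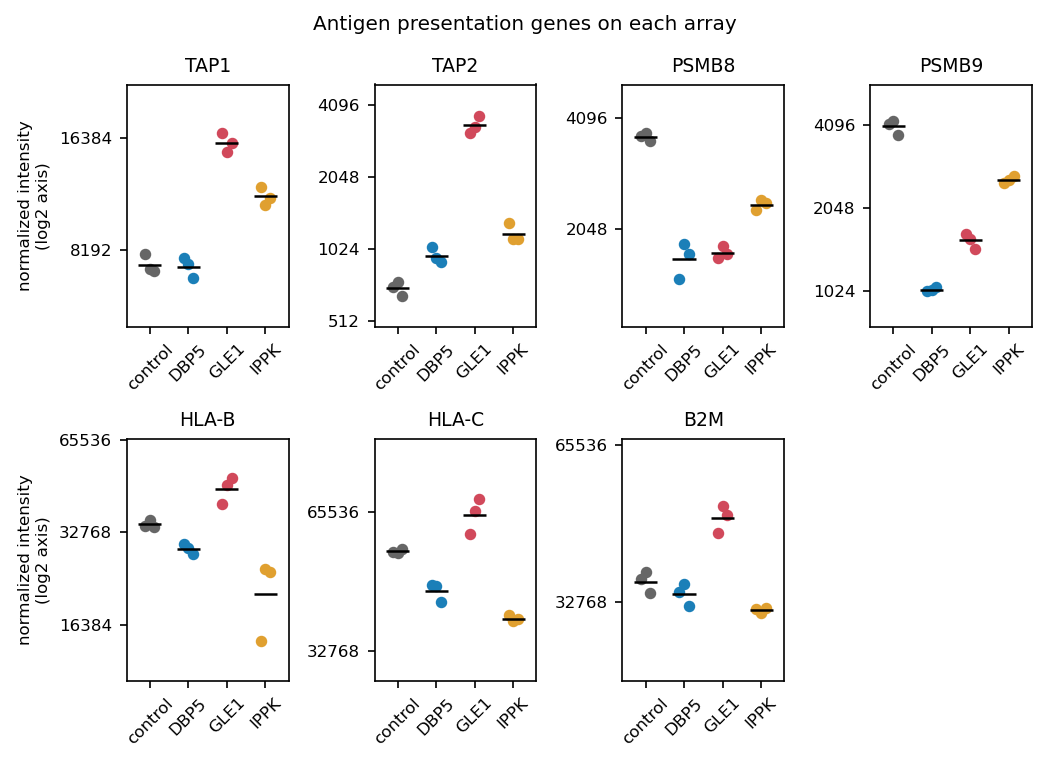
Normalized intensity of the antigen presentation genes on each array (log2 axis, with its own range for each gene), with 1 point per array and a line at the geometric mean of each siRNA. TAP1 and TAP2 are highest in the GLE1 siRNA group, at 15000 to 16900 and 3140 to 3700, where PSMB8 and PSMB9 are below control, at 1710 to 1840 and 1460 to 1650.

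HLA-B, HLA-C and B2M, the heavy and light chains of class I molecules, were among the bright probes, with no saturated spot. HLA-C read 53900, 53500 and 54600 on the control arrays, 45600, 45300 and 41900 after DBP5, 58800, 65900 and 70200 after GLE1 and 39200, 38200 and 38500 after IPPK knock-down. It was lower with DBP5 and IPPK siRNA (ratios 0.82 and 0.716, limma adjusted p = 0.00348 and 0.000102) and higher after GLE1 knock-down (1.2, adjusted p = 0.0048), with no overlap with control. B2M read 36200, 37300 and 34000 in control, 34200, 35400 and 32200 after DBP5, 44400, 49900 and 48100 after GLE1 and 31700, 31200 and 31900 after IPPK knock-down. B2M rose after GLE1 knock-down (1.32, adjusted p = 0.000144). Its ratio of 0.884 after IPPK knock-down passed at limma adjusted p = 0.0265, which was lost without any of 5 single arrays, and that of 0.947 after DBP5 knock-down did not pass (adjusted p = 0.309). The methods' t-test called B2M lower after DBP5 knock-down (adjusted p = 0.0279) and did not call it after IPPK knock-down (adjusted p = 0.118). HLA-B read 34400, 36100 and 34200 in control, 30100, 29200 and 27800 after DBP5, 40500, 46800 and 49200 after GLE1 and 14500, 24900 and 24400 after IPPK knock-down. It fell after IPPK knock-down (0.591, or -0.76 on the log2 scale, adjusted p = 0.00382). Without IPPK replicate 1, its lowest array, this fall was -0.5 (adjusted p = 0.000605), and the differences after DBP5 and GLE1 knock-down passed as well (log2 fold changes -0.27 and 0.38, adjusted p = 0.0111 and 0.00132), and likewise when the 6 arrays of a comparison were fitted alone (adjusted p = 0.012 and 0.00794). A second probe of HLA-B passed in no comparison (adjusted p = 0.452, 0.786 and 0.158). Probes to HLA genes can bind transcripts of near-identical paralogs, so these values are uncertain as values of single genes.

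The knock-downs were also compared with each other. Of the 48 genes, 33 differed between DBP5 and GLE1 knock-down, against 54.9% of all genes, with 25 lower and 8 higher in the former (27.7% and 27.2% over all genes). Between DBP5 and IPPK, 34 differed, against 49.1%, with 22 lower and 12 higher after DBP5 (24.4% and 24.7%). Between GLE1 and IPPK, 36 differed, against 60.8%, with 16 lower and 20 higher after GLE1 (29.6% and 31.2%). Antigen presentation genes were lower after DBP5 than after GLE1 knock-down in 6 of 7 cases, with PSMB8 not called. Between DBP5 and GLE1 knock-down, SAMD9L differed by -2 and TAP2 by -1.81 on the log2 scale, and IFIT1 by 1.55 (limma adjusted p = 1.9e-08, 7.8e-08 and 4.3e-08). Between DBP5 and IPPK knock-down, PSMB9 differed by -1.31 and DTX3L by -1.12 (adjusted p = 9.1e-08 and 8e-08). OAS2 and OAS3 were lower after DBP5 by 1.29 and 0.95, and OASL was higher by 0.35 (adjusted p = 1.1e-05, 1.9e-05 and 0.00846). IFI44L and IFIT1 were not called in this comparison (-0.15 and -0.12, adjusted p = 0.114 and 0.187). Between GLE1 and IPPK knock-down, TAP2 differed by 1.5, HLA-B by 1.14 and GBP3 by -1.29 (adjusted p = 2.1e-07, 0.000232 and 5.2e-08).

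**Figure D5:**
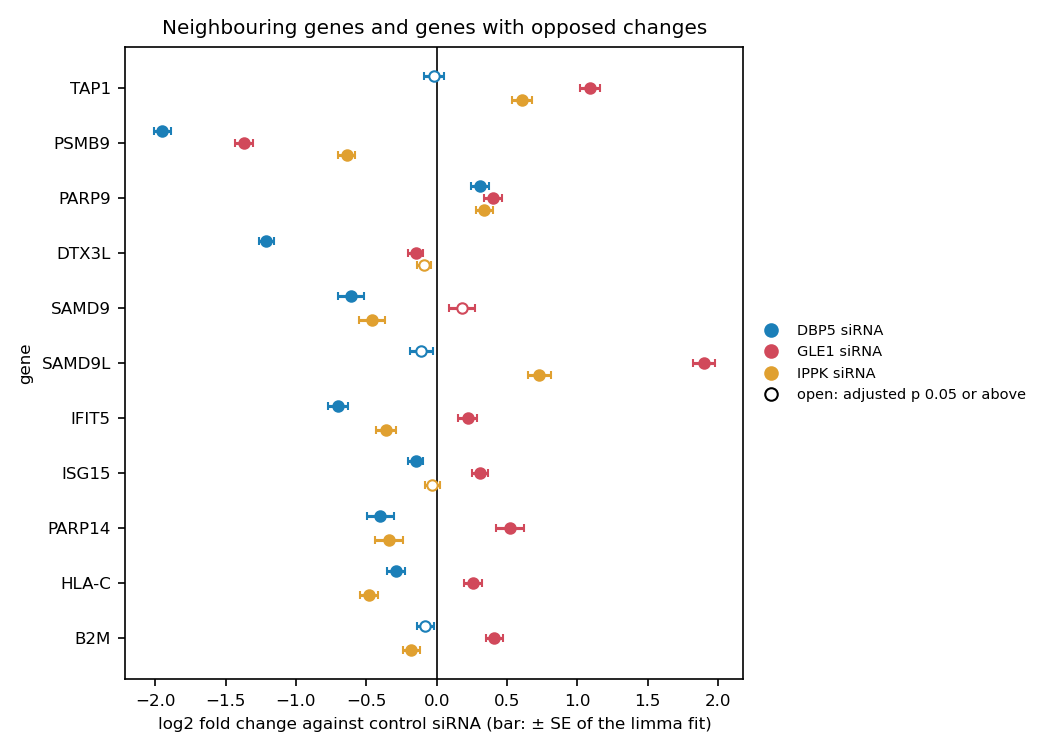
Log2 fold change against control of neighbouring genes (TAP1 and PSMB9, PARP9 and DTX3L, SAMD9 and SAMD9L) and of genes that were lower after one knock-down and higher after another, with bars of ± SE from the limma fit and open circles for values that did not pass the adjusted p of 0.05. IFIT5, PARP14 and HLA-C lie above 0 after GLE1 knock-down (0.22, 0.52 and 0.26) and below it after the other two.

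Interferons, sensors and signalling proteins were read beside these genes from a list of 61 genes, of which 50 were tested. Of these, 23 were lower and 11 higher after DBP5, 11 lower and 23 higher after GLE1 and 14 lower and 12 higher after IPPK knock-down, with median log2 fold changes of -0.21, 0.18 and -0.01. These were 46% and 22%, 22% and 46%, and 28% and 24% of the 50, against 27.1% and 27.3%, 30.4% and 32%, and 28.2% and 27.3% over all genes, so the shares after IPPK knock-down were near those of all genes. The probes of IFNB1, IFNA2, IFNK, IFNG and IFNL3 were not well above background on any array. IFNE, an epithelial type I interferon, was above it on 1 control, 3 DBP5, 3 GLE1 and 2 IPPK siRNA arrays. It was thus tested only through the DBP5 and GLE1 siRNA groups. IFNE was called higher by 0.52, 0.43 and 0.86 on the log2 scale (limma adjusted p = 0.00666, 0.0162 and 0.00028). These sizes are uncertain, as they rest on control levels near background. IFNL2, which was above it on all 12 arrays, and IFNL1, on 9, were not called. TLR3, the endosomal receptor of double-stranded RNA, read 140, 159 and 135 on the control arrays, 36.9, 33.7 and 32.6 after DBP5, 85.2, 104 and 100 after GLE1 and 200, 194 and 194 after IPPK knock-down. It was lower after DBP5 and GLE1 and higher after IPPK knock-down (limma adjusted p = 2.7e-08, 0.000148 and 0.00134). IFIH1, the cytosolic sensor MDA5, moved the same way after DBP5 and IPPK knock-down, at ratios of 0.448 and 1.79 (adjusted p = 1.4e-06 and 1.4e-05), with 0.899 after GLE1 knock-down (adjusted p = 0.153). TRAF3, an adaptor between sensors and kinases, was at 0.279 of control after IPPK and at 0.671 after GLE1 knock-down (adjusted p = 1.3e-08 and 4.2e-05), with 0.957 after DBP5 knock-down (adjusted p = 0.503).

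Of the signalling genes, STAT2 read 7140, 7370 and 7030 on the control arrays, 4140, 3920 and 4060 after DBP5, 9610, 9260 and 8870 after GLE1 and 8160, 8260 and 8400 after IPPK knock-down. No group overlapped with control. STAT2 fell after DBP5 knock-down to 0.563 of control (limma adjusted p = 1.8e-07) and was higher after GLE1 and IPPK knock-down (1.29 and 1.15, adjusted p = 4.9e-05 and 0.0034). STAT3 was at 1.25, 1.34 and 0.887 (adjusted p = 0.00362, 0.000434 and 0.0663) by its brightest probe, but a dimmer probe gave 0.928, 1.14 and 0.536 (adjusted p = 0.453, 0.156 and 4.7e-05). JAK2, a kinase of the type II receptor, rose to 1.28, 1.76 and 2.36 of control (adjusted p = 0.0012, 1.8e-06 and 1.2e-07), and SOCS3, a feedback inhibitor, to 3.07 after GLE1 knock-down (adjusted p = 1.3e-07). IRF8 fell to 0.552, 0.434 and 0.644 (adjusted p = 0.000258, 1.5e-05 and 0.0019). Among the 15 other class I presentation genes, 10 were lower and 2 higher after DBP5, 2 lower and 9 higher after GLE1 and 7 lower and 1 higher after IPPK knock-down, which is 66.7% and 13.3%, 13.3% and 60%, and 46.7% and 6.67% beside the shares over all genes given above (27.1% and 27.3%, 30.4% and 32%, 28.2% and 27.3%). ERAP2, which trims peptides for class I molecules, was at 0.446 after DBP5 knock-down (adjusted p = 1.3e-07). PSMB5, the constitutive counterpart of PSMB8, rose by 0.61, 0.73 and 0.45 on the log2 scale, and PSMB6, that of PSMB9, fell by 0.67 after GLE1 knock-down (adjusted p = 3.1e-07) and had values of -0.09 and -0.02 after DBP5 and IPPK knock-down.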

How the data were processed

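Cytoplasmic RNA of U2OS cells was hybridised to 12 one-colour Agilent arrays on 3 slides, each with 1 array per siRNA. The authors deposited scanner output of Feature Extraction 10.7.3.1 (array design on hg19), in which the intensity of a spot is background-subtracted on a linear scale, and a table of log2 values that the authors normalized by LOESS in R. The scale and centring of that table were set against the scanner values, and it tracked signals without background subtraction. Here the background-subtracted intensities, without outlier spots, were taken to log2, normalized by cyclic loess over 43118 spots and averaged per probe (34127 probes, of which 26449 or 77.5% were named through RefSeq). The brightest probe of a gene name was kept if the 3 arrays of some siRNA all had it well above background (20821 of 27522). Group means were fitted with limma 3.58.1 in R 4.3.3 over 12 arrays, without a block, for 6 contrasts, each with Benjamini-Hochberg adjustment. Among the kept genes 4 values were missing through outlier spots and were left out of the fit. Ratios are of normalized intensities, with the SD over 3 arrays against the control mean. The script was tested on simulated data. No spot was saturated, and the precision is limited by the number of arrays.

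Replicate numbers mark the slide. Deviations from the group means correlated at 0.318 to 0.513 (median 0.380) in 18 pairs of arrays with the same number and at -0.285 to -0.0493 in 36 other pairs, so the numbers pair the arrays. The members and all gene lists were chosen with earlier results of these data known. Genes named with values were, for each knock-down, up to 10 members with the largest called change, the brightest of each role, and all IRFs, GBPs, receptor subunits and antigen presentation genes; beside these STAT2, STAT3, IFNB1, TLR3, TRAF3 and pathway genes with a called change of at least 2-fold. IFIT3, IFIT5, IFITM1, IFITM2, MX2, USP18, HERC6, TRIM21, PARP9, PARP14, IFI35, SAMD9, PML, SOCS1, PSMB5, PSMB6, PSMB10, IFNE, IFNL1 and IFNL2 were chosen after their values were seen. Alternatives were quantile normalization, scaling to the 75th percentile, normexp on median signals with an offset of 50, the log2 table of the authors, other filters and probe rules, a block, the 6 arrays compared, leaving out each array and the methods' paired t-test. Promoter windows came from RefSeq (GRCh38.p14), and no coordinates of the array design were used. HERC5, RSAD2, XAF1 and IFI27 were not tested, and 1 gene of the pathway list is not reported here.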

Additional observations from a re-analysis of the deposited data

Results flagged for a closer look

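Some genes were called lower after one knock-down and higher after another, and the direct comparison of the knock-downs in the same limma fit was past the threshold. With the methods' t-test and adjustment, each of these genes lost a call against control. IFIT5, an RNA-binding effector, read 1660, 1690 and 1530 on the control arrays, 1110, 942 and 951 after DBP5, 1940, 1860 and 1870 after GLE1 and 1290, 1290 and 1220 after IPPK knock-down. DBP5 minus GLE1 knock-down was -0.92 and GLE1 minus IPPK knock-down was 0.58 on the log2 scale (limma adjusted p = 1.3e-06 and 3.6e-05). The rise of IFIT5 against control after GLE1 knock-down (0.22, adjusted p = 0.0169) was lost without either of 2 single arrays and with the processed values of the authors (0.09, adjusted p = 0.137). The methods' t-test did not call this rise (adjusted p = 0.066). PARP14 differed by -0.92 and 0.87 in the same comparisons (limma adjusted p = 1.7e-05 and 2.2e-05), with all 3 GLE1 siRNA arrays at 1340 or above and all other arrays at 1100 or below. Its calls against control were lost with the methods' t-test (adjusted p = 0.071, 0.0847 and 0.164 for DBP5, GLE1 and IPPK siRNA).

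For ISG15 the difference of DBP5 minus GLE1 knock-down was -0.46 on the log2 scale (limma adjusted p = 5.1e-05). HLA-C differed by -0.55 between DBP5 and GLE1 knock-down and by 0.75 between GLE1 and IPPK knock-down (adjusted p = 3.9e-05 and 3.2e-06). B2M differed by 0.58 between GLE1 and IPPK knock-down (adjusted p = 1.1e-05). In each of these comparisons the 3 GLE1 siRNA arrays lay above the 3 arrays of the other knock-down. Against control, the methods' t-test did not call ISG15 after DBP5 knock-down (adjusted p = 0.265) or B2M after IPPK knock-down (adjusted p = 0.118). These limma calls were also lost without any of 10 and any of 5 single arrays. HLA-C was not called by the t-test with DBP5 or GLE1 siRNA (adjusted p = 0.0731 and 0.106).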

How the results depend on the processing

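The numbers of members called kept within 1.5 times the reported ones under every alternative but the methods' paired t-test with Benjamini-Hochberg adjustment, which called 14 genes lower and 3 higher after DBP5 knock-down (26 and 7 by limma), 15 lower after IPPK knock-down (26), 18 that differed between DBP5 and GLE1 knock-down (33) and 10 between DBP5 and IPPK knock-down (34). When 1 array was left out, genes lower and higher numbered 24 to 28 and 6 to 7 after DBP5, 21 to 23 and 13 to 15 after GLE1 and 24 to 26 and 8 to 10 after IPPK knock-down, and genes that differed numbered 31 to 34 (DBP5 and GLE1), 27 to 34 (DBP5 and IPPK) and 35 to 37 (GLE1 and IPPK). With the replicate number as a block, 27 and 7, 22 and 15, and 27 and 10 were lower and higher, and no call changed beyond the 7 given beside ISG15, MX2, IFI35, GBP1 and PML. Directions turned with the probe: after DBP5 knock-down IFNAR2 was at -0.42 as the mean of its probes and -1.75 by a dimmer probe, and PML at 0.54 as the mean of its probes (log2). For dim genes the size of a change depended on background handling: IFITM1 after GLE1 knock-down was at -0.11 (log2) with the processed values of the authors (adjusted p = 0.0841), against -0.77. Of the 144 single values, 140 kept direction and call with scaling to the 75th percentile, 139 with quantile normalization, 131 with normexp, 131 with the processed values of the authors and 101 with the methods' t-test, under which 39 lost the call. No scaling moved the median of all genes by over 0.1. Genes near background have limited precision.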
